A study of Mus musculus with 8 samples.

Results

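The genes described here are those of the Nodal and activin branch of TGF-beta signalling, namely the ligand genes *Nodal*, *Inhba* and *Inhbb*, the inhibin subunit gene *Inha*, the Nodal antagonist gene *Lefty1*, the type I receptor gene *Acvr1b*, and *Smad2*, *Smad3* and *Skil*. They were chosen by name, 9 genes of the 25239 symbols in the count files, and all 9 were found. RNA-Seq was available for whole E14.5 fetal ovaries of C57BL/6 mice. The 4 control libraries were *Bmpr1a* fl/fl and the 4 *Bmpr1a*-cKO libraries were *Bmpr1a* fl/fl; *Oct4-Cre* Cre/WT, and each library was a pool of 2 ovary pairs, from 8 embryos of each genotype across 6 litters. Both genotypes carried the floxed allele and were exposed in utero to 1 mg of 4-hydroxytamoxifen and 0.5 mg of progesterone on 3 days (dpc 9.5, 10.5, then 11.5). The Cre is driven by regulatory sequence of *Oct4* and acts in germ cells, so the ovarian somatic cells of the cKO kept *Bmpr1a*. The controls carried no Cre, and effects of the Cre itself and of the deletion cannot be told apart. The litter of each library is not given.

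Activins are dimers of beta subunits (encoded by *Inhba* and *Inhbb*), and inhibins are dimers of the alpha subunit, encoded by *Inha*, with a beta subunit. Nodal and activins bind type II receptors (ACVR2A and ACVR2B) and the type I receptor ALK4, encoded by *Acvr1b*, which phosphorylates SMAD2 and SMAD3. These then join SMAD4 and enter the nucleus, whereas BMPs acting through BMPR1A use other receptor-regulated SMADs. Nodal is known for patterning the early embryo and for the pluripotent state, needs a CRIPTO-type co-receptor, and induces its own gene and those of its LEFTY antagonists. In the gonads it is known from germ cells of the fetal testis, while inhibins and activins are made by supporting cells of the ovary and testis.

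*Bmpr1a* itself, the targeted gene, measured 199 to 237 CPM (counts relative to the TMM-scaled size of the library) in controls and 185 to 209 CPM in *Bmpr1a*-cKO libraries, a Log2FC of -0.16 with an FDR of 0.0692. These gene counts do not separate the deleted part of *Bmpr1a* from the rest, and the somatic cells keep the gene, so they check the labels only weakly. The paper reports other evidence of the deletion. It found BMPR1A staining lost in germ cells, *Bmpr1a* lower by qRT-PCR, and *Zglp1*, *Msx1* and *Msx2* lower in its RNA-Seq. The libraries held 8562961 to 15365052 counts. Of the germ cell markers *Ddx4*, *Dazl*, *Dnd1*, *Mael* and *Tdrd1*, none was at 0, and their summed level was 507 to 687 CPM in controls and 561 to 896 CPM in *Bmpr1a*-cKO libraries. The 5 pregranulosa markers (*Foxl2*, *Wnt4*, *Rspo1*, *Fst* and *Irx3*) were all lower in the cKO, with a summed level of 683 to 736 CPM in controls and 487 to 624 CPM in the cKO. The summed Sertoli markers, 11.9 to 13.4 CPM in controls and 8.82 to 9.97 CPM in the cKO, and mesonephros markers, 128 to 159 and 100 to 121 CPM, were also lower without overlap, with 1 gene called in each list. The called genes were *Sox9* (7.87 to 9.83 CPM in controls, 6.28 to 7.63 CPM in the cKO) and *Emx2* (112 to 140 and 89.3 to 105 CPM). Each was the largest part of its sum, and the other genes of both lists overlapped between genotypes. The sums of the stroma, endothelium, erythroid and steroidogenic lists overlapped between genotypes. Within the steroidogenic list *Hsd3b1* was called lower, with 31.2 to 37.7 CPM in controls and 15.3 to 33.0 CPM in the cKO (Log2FC -0.63, FDR 0.00561 by edgeR). Of the 4 erythroid genes 2 were at 0 in every library. Macrophage markers rose for 3 of 4 genes, from a summed 22.8 to 27.6 CPM in control to 30.5 to 37.6 CPM in the cKO. In whole ovaries, fewer cells of a type and less RNA per cell cannot be told apart.

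Of the 9 genes, 4 were higher and 3 were lower in *Bmpr1a*-cKO ovaries at an FDR below 0.05, and 2 were not called. Over all 14249 genes tested, 29.8% passed the same FDR (17.3% higher and 12.5% lower). *Nodal* and *Lefty1* were the 2 DEGs among them (absolute Log2FC above 0.5 with an FDR below 0.05), against 10.2% of all genes tested (6.11% of higher and 4.06% of lower level). Both had passed the filter on low counts only through the *Bmpr1a*-cKO group, so they had to differ once tested, and nothing is read from setting their calls, here or among the 4 higher genes, against the background. For 6 of the 9 genes the libraries of the genotypes did not overlap, against 27.9% of all genes tested. *Nodal* and *Lefty1* are among the 6 and were bound to be, so nothing is read from this comparison either. The median Log2FC of the 9 genes was -0.02 and that of all genes tested was -0.0042. Every FDR is from the quasi-likelihood F test in edgeR, adjusted by Benjamini-Hochberg across the whole set tested.

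*Nodal* and *Lefty1* had few reads, and their counts are given before any rate. *Nodal* (chr10:61417972-61425338, plus strand, mm10) encodes the ligand. It had 1, 4, 4 and 3 counts in control libraries 1 to 4 and 10, 14, 10 and 28 counts in *Bmpr1a*-cKO libraries 1 to 4. Every *Bmpr1a*-cKO library lay above every control library, and control libraries 1 and 4 were at or below the floor set at 3 counts, which corresponds to 0.189 to 0.358 CPM depending on the library. In CPM the control libraries measured 0.0822, 0.354, 0.375 and 0.189, and the *Bmpr1a*-cKO libraries 1.19, 1.04, 1.05 and 1.91. The mean rose from 0.250 ± 0.139 to 1.30 ± 0.414 CPM (SD, n = 4 each), a Log2FC of 2.42 (SE 0.42, 95% interval 1.53 to 3.31) with an FDR of 0.000514 by edgeR. Summed over libraries, 12 control counts stood against 62 in the cKO, a depth-adjusted ratio of 5.61 with a counting interval of 2.99 to 11.4. The summed level of 3 markers of fetal testis germ cells (*Nanos2*, *Dnmt3l* and *Piwil4*) was 2.39 to 2.997 CPM in controls and 2.15 to 3.75 CPM in *Bmpr1a*-cKO libraries, and the genotypes overlapped. *Piwil4* made up nearly all of this sum, with 2.21 to 2.997 CPM in controls and 1.55 to 3.21 CPM in the cKO. *Nanos2* was at 0 to 0.177 CPM in controls and 0.0744 to 0.596 CPM in the cKO, and *Dnmt3l* was at 0 in every control library and at most 0.0744 CPM in the cKO, so the sum says little about those 2 genes. *Nodal* is not among the genes of the CPM table that the authors deposited.

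The 250 bases upstream of the *Nodal* start site are shown because *Nodal* is the ligand gene among the 2 DEGs. They are taken from RefSeq (GRCm38.p6, chr10:61417722-61417971, plus strand) and are written 5′ to 3′ in lower case, with capitals reserved for motif matches.
Nodal upstream: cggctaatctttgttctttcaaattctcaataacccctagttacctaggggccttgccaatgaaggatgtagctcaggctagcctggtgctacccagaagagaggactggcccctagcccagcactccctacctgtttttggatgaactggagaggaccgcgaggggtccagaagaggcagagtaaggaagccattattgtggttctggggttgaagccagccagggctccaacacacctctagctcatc
The letters CAGAC, a SMAD binding element, and AATNCACA, a FOXH1 site, were searched on both strands. This window holds 0 matches of either, which says only that these letters are not in it. Of 32851 RefSeq windows of the same length, 42.2% hold CAGAC and 3.18% hold AATNCACA.

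*Lefty1* (chr1:180935022-180938400, plus strand, mm10) encodes a secreted antagonist that binds Nodal and its co-receptor. It had 6, 5, 1 and 6 counts in control libraries 1 to 4 and 12, 17, 22 and 19 counts in *Bmpr1a*-cKO libraries 1 to 4. Again no control library reached the lowest *Bmpr1a*-cKO library, and control library 3 was below the floor. The corresponding CPM were 0.493, 0.443, 0.0937 and 0.379 in controls and 1.43, 1.26, 2.30 and 1.30 in *Bmpr1a*-cKO libraries. The mean rose from 0.352 ± 0.179 to 1.57 ± 0.492 CPM (SD, n = 4 each), a Log2FC of 2.06 (SE 0.38, 95% interval 1.26 to 2.87) with an FDR of 0.000819 by edgeR. The 18 control counts against 70 in the cKO gave a depth-adjusted ratio of 4.22 with a counting interval of 2.49 to 7.53. As for *Nodal*, the filter on low counts was passed only through the *Bmpr1a*-cKO group. In these libraries the study named *Lefty1*, with *Hesx1*, *Asb9*, *Upp1* and *Pramef12*, among fetal testis germ cell genes raised in the cKO. It proposed that BMP signalling is needed to limit masculinisation of germ cells.

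*Lefty1* has a close paralog, *Lefty2*, which also encodes a Nodal antagonist and ends 35918 bases before *Lefty1* on the same strand. The coding sequences of both are 1104 bases long in GENCODE vM21, and 1014 of the aligned bases (91.8%) are identical. The most different stretch, positions 35 to 124 of each coding sequence, is printed to show how reads of the paralogs can be told apart. Its 27 differences are in capitals.
Lefty1: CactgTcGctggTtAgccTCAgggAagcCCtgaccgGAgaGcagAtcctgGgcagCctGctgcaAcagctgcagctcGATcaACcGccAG
Lefty2: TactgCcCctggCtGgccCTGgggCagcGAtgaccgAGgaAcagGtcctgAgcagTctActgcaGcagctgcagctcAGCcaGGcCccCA
Of 955 windows of 150 bases, the read length of the study, 0 occur in both coding sequences, but of 1055 windows of 50 bases 281 do. The paper names STAR as the tool for counting. How it treated reads that match both genes is not given in the sources used here, so the split between the paralogs is uncertain. *Lefty2* had 0, 0, 0 and 1 counts in controls and 3, 1, 2 and 2 counts in *Bmpr1a*-cKO libraries. It was removed by the filter on low counts, and 1 control count against 8 in the cKO gave a ratio of 8.68 with a counting interval of 1.16 to 385.

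**Figure D1:**
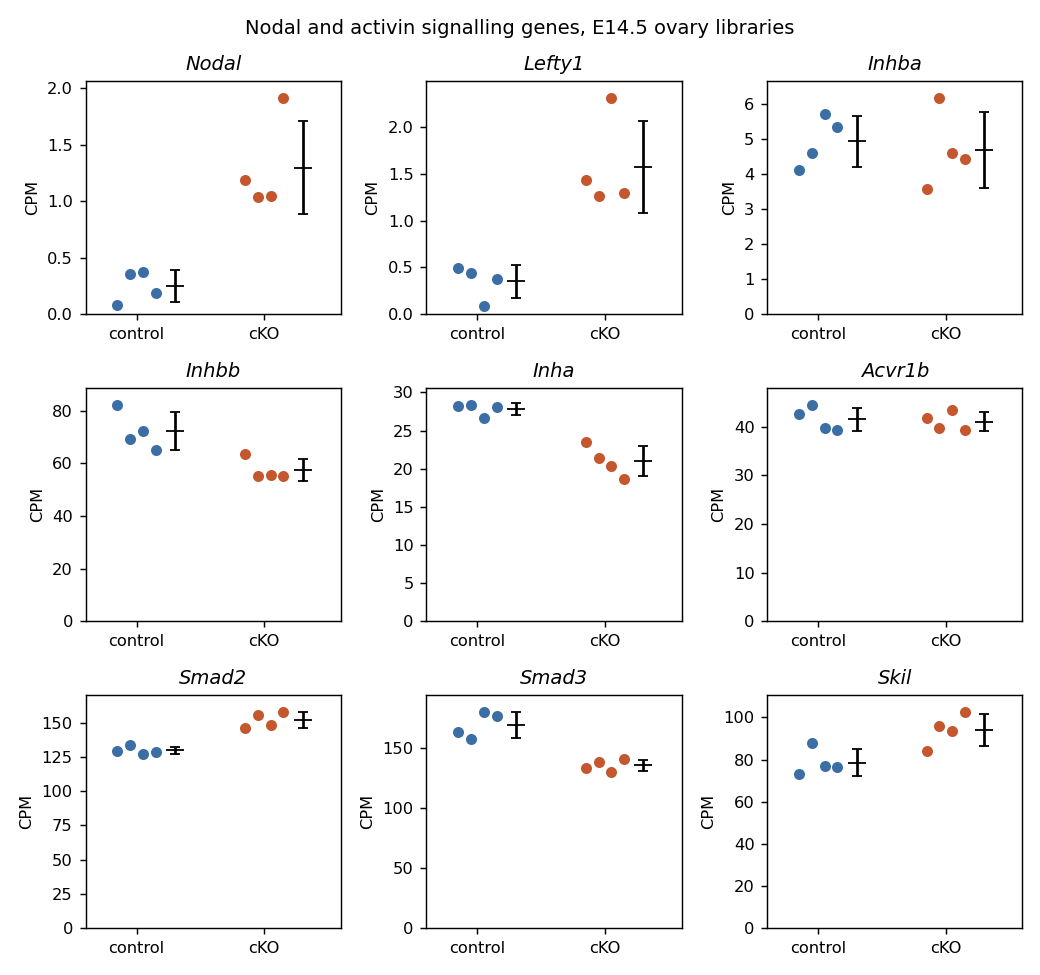
TMM-scaled CPM of the 9 genes, with 1 point for each of the 4 control (blue) and 4 *Bmpr1a*-cKO (orange) libraries and, in black, the mean with the SD. Each vertical axis starts at 0 and has its own range. For *Nodal* and *Lefty1* all *Bmpr1a*-cKO libraries sit at 1.04 CPM or above and all control libraries at 0.493 CPM or below, while *Inhba* and *Acvr1b* overlap.

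The subunit genes of activins and inhibins did not move with *Nodal*. *Inhbb* (chr1:119415465-119422248, minus strand), encoding the beta B subunit, measured 82.1, 69.3, 72.4 and 64.9 CPM in controls and 63.5, 55.2, 55.5 and 55.1 CPM in *Bmpr1a*-cKO libraries. All *Bmpr1a*-cKO libraries were below the lowest control library, although cKO library 1 came close to it. The mean fell from 72.2 ± 7.30 to 57.3 ± 4.15 CPM (SD, n = 4 each), a Log2FC of -0.33 (SE 0.079, 95% interval -0.50 to -0.17, FDR 0.00488 by edgeR).

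*Inha* (chr1:75507077-75510366, plus strand), encoding the alpha subunit that turns a beta subunit into an inhibin, measured 28.3, 28.3, 26.6 and 28.1 CPM in controls and 23.5, 21.3, 20.4 and 18.7 CPM in *Bmpr1a*-cKO libraries. The genotypes were again separate, with a gap between 23.5 and 26.6 CPM. The mean fell from 27.8 ± 0.832 to 21.0 ± 1.997 CPM (SD, n = 4 each), a Log2FC of -0.42 (SE 0.082, 95% interval -0.59 to -0.24, FDR 0.00138 by edgeR). *Inha* and *Inhbb* moved in the same direction as the 5 pregranulosa markers given above, and the part of those cells in the result was not tested.

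*Inhba* (chr13:16011851-16031621, plus strand), encoding the beta A subunit, had 50, 52, 61 and 85 counts in controls and 30, 83, 44 and 65 counts in *Bmpr1a*-cKO libraries. These were 4.11, 4.605, 5.71 and 5.36 CPM and 3.58, 6.17, 4.61 and 4.44 CPM. The *Bmpr1a*-cKO group held both the lowest and the highest library. The Log2FC was -0.05 (SE 0.18) with an FDR of 0.854 by edgeR, and the 95% interval of -0.44 to 0.33 leaves room for changes of the size seen for *Inhbb*. With germ cell marker scaling the value was -0.45 (FDR 0.145). *Inhba* overlaps *B230303A05Rik* and *Gm48444* on the opposite strand, and because no source used here says whether counting used strand, reads from those genes cannot be told apart from its own.

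Ratios within a library do not depend on the scaling and were taken as a description, with no test. They are ratios of counts without correction for gene length, so they do not rank genes by level. The log2 ratio of *Inhbb* to *Inha* counts was 1.37 ± 0.15 in controls and 1.45 ± 0.079 in *Bmpr1a*-cKO libraries (mean and SD of 4), and the genotypes overlapped. On the linear scale this is 2.58 and 2.73 *Inhbb* counts for each *Inha* count. The ratio of *Inhba* to *Inhbb* was -3.86 ± 0.33 in controls and -3.62 ± 0.40 in *Bmpr1a*-cKO libraries on the log2 scale, or 0.0688 and 0.0813 on the linear scale, also overlapping.

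*Acvr1b* (chr15:101174067-101213684, plus strand), encoding the type I receptor ALK4, measured 42.6, 44.5, 39.8 and 39.4 CPM in controls and 41.7, 39.7, 43.4 and 39.4 CPM in *Bmpr1a*-cKO libraries. The genotypes covered nearly the same range. The mean was 41.6 ± 2.40 in controls and 41.1 ± 1.90 CPM in the cKO (SD, n = 4 each), a Log2FC of -0.02 (SE 0.069, FDR 0.867 by edgeR). The 95% interval was -0.17 to 0.13 with TMM scaling, and the value was -0.38 (FDR 0.122) with germ cell marker scaling. *Mir6962* lies within *Acvr1b* on the same strand.

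The genes of the receptor-regulated SMADs of this branch moved in opposite directions. *Smad3* (chr9:63646767-63757994, minus strand) measured 163, 157, 180.1 and 177 CPM in controls and 134, 138, 130 and 141 CPM in *Bmpr1a*-cKO libraries. The highest *Bmpr1a*-cKO library was below the lowest control library. The mean fell from 169 ± 10.99 to 136 ± 4.92 CPM (SD, n = 4 each), a Log2FC of -0.32 (SE 0.061, 95% interval -0.45 to -0.19, FDR 0.001 by edgeR).

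*Smad2*, on chromosome 18, measured 129, 134, 127 and 129 CPM in controls and 146, 156, 148 and 158 CPM in *Bmpr1a*-cKO libraries. Here all *Bmpr1a*-cKO libraries were above all control libraries. The mean rose from 130 ± 2.84 to 152 ± 5.80 CPM (SD, n = 4 each), a Log2FC of 0.23 (SE 0.054, 95% interval 0.11 to 0.34, FDR 0.00488 by edgeR), but the value was -0.14 (FDR 0.564) when libraries were scaled to the summed counts of the germ cell markers. That scaling moved the median Log2FC of all genes tested from -0.0042 to -0.37, so the value of *Smad2* under it stayed above the median. Of the 5 markers used for it, *Dazl* (Log2FC 0.63) and *Dnd1* (0.78) were higher and *Mael* (-0.80) was lower in the cKO, while *Tdrd1* (-0.20) and *Ddx4* (0.11) were not called. *Dazl* was the largest part of their sum, with 282 to 381 CPM in controls and 382 to 615 CPM in the cKO.

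The balance of *Smad3* to *Smad2* within a library is free of that choice. Its log2 ratio was 0.34, 0.23, 0.50 and 0.46 in controls and -0.13, -0.17, -0.19 and -0.17 in *Bmpr1a*-cKO libraries. Every control library held more *Smad3* than *Smad2* counts, and every *Bmpr1a*-cKO library held fewer. Counts are not corrected for gene length, so this does not say which gene had the higher level. Per kb of exon *Smad3* was above *Smad2* in both genotypes (30.6 and 14.8 CPM per kb in controls, 24.4 and 17.3 in the cKO). The mean went from 0.38 ± 0.12 to -0.17 ± 0.028 (SD, n = 4 each), a difference of -0.55 on the log2 scale, or from 1.30 to 0.891 *Smad3* counts for each *Smad2* count. No test of this ratio was run.

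**Figure D2:**
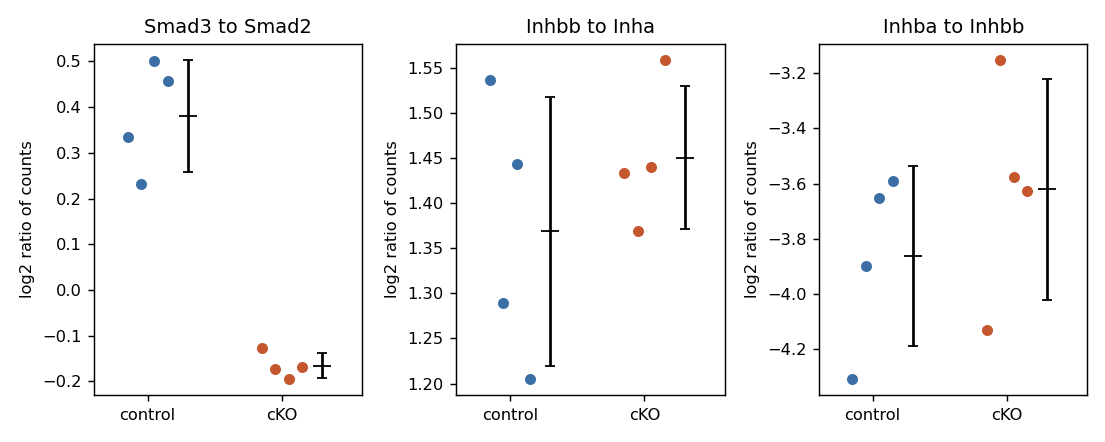
Log2 ratios of counts between members within a library, with 1 point for each of the 4 control (blue) and 4 *Bmpr1a*-cKO (orange) libraries and the mean with the SD in black. The ratio of *Smad3* to *Smad2* lies between 0.23 and 0.50 in controls and between -0.19 and -0.13 in *Bmpr1a*-cKO libraries, while the other 2 ratios overlap between genotypes.

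*Skil* (chr3:31095058-31122577, plus strand) encodes SnoN, a nuclear co-repressor that binds SMAD complexes and is itself induced by them. It measured 73.0, 87.8, 76.8 and 76.3 CPM in controls and 84.2, 95.9, 93.5 and 103 CPM in *Bmpr1a*-cKO libraries. The genotypes overlapped, since control library 2 exceeded *Bmpr1a*-cKO library 1. The mean rose from 78.5 ± 6.46 to 94.1 ± 7.63 CPM (SD, n = 4 each), a Log2FC of 0.27 (SE 0.074, 95% interval 0.11 to 0.42, FDR 0.0136 by edgeR), but the value was -0.11 (FDR 0.645) with germ cell marker scaling. The FDR was 0.0511 with library size alone as the scaling, 0.0502 without control library 1 and 0.0600 without *Bmpr1a*-cKO library 4.

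Apart from the ratios of counts above, levels of different genes were compared per length, as CPM per kb of exon (GENCODE vM21). In control ovaries *Smad3* was highest at 30.6 ± 1.98, followed by *Inha* (18.9 ± 0.564), *Inhbb* (17.0 ± 1.71), *Smad2* (14.8 ± 0.324), *Acvr1b* (9.41 ± 0.543) and *Skil* (8.10 ± 0.666). *Inhba* (0.774 ± 0.113), *Lefty1* (0.2003 ± 0.102) and *Nodal* (0.119 ± 0.0665) were far below them. In that order the means of *Inha* and *Inhbb*, and of *Lefty1* and *Nodal*, differed by less than the sum of their SDs. The SDs hold the spread between libraries only. Length was taken over all annotated exons of a gene, and the isoforms present were not examined, so close ranks here and in the cKO are uncertain.

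In *Bmpr1a*-cKO ovaries *Smad3* (24.4 ± 0.887 CPM per kb) was still highest, and *Smad2* (17.3 ± 0.661) came next, ahead of *Inha* (14.2 ± 1.35) and *Inhbb* (13.5 ± 0.974). *Skil* (9.70 ± 0.787) and *Acvr1b* (9.29 ± 0.430) did not differ beyond their spread. *Lefty1* (0.895 ± 0.280), *Inhba* (0.735 ± 0.169) and *Nodal* (0.619 ± 0.198) formed the lowest group, in which neighbours did not differ beyond their spread. In the cKO, *Nodal* and *Lefty1* thus lay near the level of *Inhba* and remained below the other 6 genes.

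**Figure D3:**
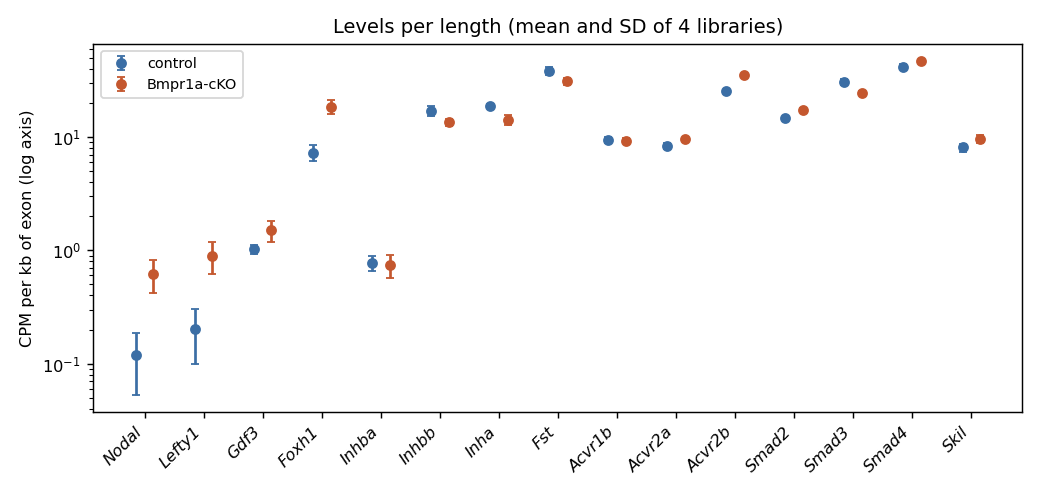
CPM per kb of exon on a log axis for the 9 genes and 6 further pathway genes, as the mean and SD of 4 libraries in control (blue) and *Bmpr1a*-cKO (orange) ovaries. *Nodal* rises from 0.119 to 0.619 and *Lefty1* from 0.2003 to 0.895, both to about the level of *Inhba*, while *Smad3* stays the highest of the 9 genes at 30.6 and 24.4.

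The remaining genes of the pathway were taken from a list of 45 ligands, receptors, inhibitors, convertases, intracellular partners and induced targets. All 45 symbols were in the files, 32 passed the filter on low counts, and 4 (*Gdf1*, *Inhbc*, *Inhbe* and *Gsc*) were at 0 in every library. *Gdf1* overlaps *Cers1* on the same strand, and how the counting treated reads shared by both is not given, so its 0 may not mean absence. Of the 32 tested, 5 were higher and 6 were lower in *Bmpr1a*-cKO ovaries, with a median Log2FC of -0.03. This share is close to the background of 29.8% given above. The number of calls was 7 without control library 4 and also 7 without *Bmpr1a*-cKO library 2.

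*Foxh1* (chr15:76668225-76669948, minus strand) encodes the transcription factor that recruits SMAD2 and SMAD3 to Nodal-responsive enhancers, and it rose most among the 32. It measured 9.46, 10.01, 12.1 and 8.20 CPM in controls and 20.5, 28.0, 28.5 and 24.6 CPM in *Bmpr1a*-cKO libraries. The highest control library was far below the lowest *Bmpr1a*-cKO library. The mean rose from 9.94 ± 1.62 to 25.4 ± 3.69 CPM (SD, n = 4 each), a Log2FC of 1.37 (SE 0.13, 95% interval 1.10 to 1.64) with an FDR of 1.9e-06 by edgeR. Unlike *Nodal* and *Lefty1*, it was well above the floor, with 113 to 377 counts per library.

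Among the ligands, 5 of 9 were tested, with 1 higher and 1 lower. *Gdf3*, a Nodal-related ligand of pluripotent cells, rose from 2.47 ± 0.241 to 3.63 ± 0.731 CPM (Log2FC 0.58, FDR 0.0322), with overlapping libraries, and 8 of the 18 alternatives took its FDR above 0.05, namely DESeq2, library size alone, germ cell marker scaling and the fits without control library 1, 3 or 4 or *Bmpr1a*-cKO library 2 or 4. *Gdf11*, a ligand of the same type II receptors, fell from 28.3 ± 1.80 to 21.9 ± 1.98 CPM (Log2FC -0.38, FDR 0.00335).

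Of the receptors and co-receptors, 6 of 8 were tested and 2 were higher. *Acvr2b*, encoding a type II receptor of Nodal and activins, rose from 99.7 ± 3.04 to 138 ± 4.38 CPM (Log2FC 0.47, FDR 1.7e-05), but the value was 0.11 with an FDR of 0.658 under germ cell marker scaling. *Acvr2a*, encoding the other, rose from 47.8 ± 2.72 to 54.4 ± 1.499 CPM (Log2FC 0.19, FDR 0.0386), but the value was -0.17 under germ cell marker scaling and its FDR was above 0.05 in 11 of 18 alternatives, including the fits without control library 1, 2 or 4 or *Bmpr1a*-cKO library 2, 3 or 4. The Nodal co-receptor gene *Tdgf1*, which encodes CRIPTO, had 1 count in controls and 2 counts in *Bmpr1a*-cKO libraries in all, so no difference was detectable at this depth. The second co-receptor gene of this family, *Cfc1*, had 1 and 9 counts.

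Of the 7 inhibitor genes 5 were tested and 1 was lower. *Fst*, encoding follistatin, which binds and neutralises activins, fell from 177 ± 13.6 to 142 ± 11.1 CPM (Log2FC -0.31, FDR 0.00359). *Fst* was also on the list of pregranulosa markers, all 5 of which were lower, and the part of those cells in its change was not tested. Per length it stood above *Inhbb* and *Inha*, at 38.5 CPM per kb in controls and 31.0 in *Bmpr1a*-cKO ovaries.

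Both convertase genes were tested, and *Pcsk6*, encoding PACE4, which can process the Nodal precursor, was lower. It fell from 218 ± 21.4 to 136 ± 4.49 CPM (Log2FC -0.68, FDR 4.3e-06) and was the only DEG of lower level among the 32. *Pcsk6* overlaps *Gm45213* on the same and *Gm20684* on the opposite strand. *Furin*, encoding the related convertase, measured 142 ± 9.75 and 127 ± 6.63 CPM (FDR 0.0664).

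Of the 13 intracellular partners and regulators all were tested, with 2 higher and 3 lower. Besides *Foxh1*, *Ppm1a*, encoding a phosphatase that acts on SMAD2 and SMAD3, rose from 75.6 ± 1.27 to 104 ± 2.37 CPM (Log2FC 0.46, FDR 1.8e-05), but its value was 0.095 with an FDR of 0.695 under germ cell marker scaling. *Smad7*, encoding an inhibitory SMAD, fell from 82.6 ± 1.70 to 70.5 ± 7.59 CPM (Log2FC -0.23, FDR 0.0256). *Zfyve9*, encoding the SMAD anchor SARA, fell from 140 ± 5.11 to 122 ± 7.27 CPM (Log2FC -0.20, FDR 0.0190).

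*Smurf2*, encoding a ubiquitin ligase for SMADs and receptors, fell from 124 ± 6.53 to 109 ± 5.41 CPM (Log2FC -0.18, FDR 0.0353). The calls of *Smad7*, *Zfyve9* and *Smurf2* were lost in 3, 2 and 5 of the 18 alternatives, each of them a fit without 1 library. For *Smad7* these were control library 1 and *Bmpr1a*-cKO libraries 3 and 4, for *Zfyve9* control library 4 and *Bmpr1a*-cKO library 2, and for *Smurf2* control libraries 2 and 4 and *Bmpr1a*-cKO libraries 1, 2 and 3. *Smad4*, the common partner, measured 156 ± 8.12 CPM in controls and 173 ± 2.73 CPM in *Bmpr1a*-cKO libraries and was not called (Log2FC 0.15, FDR 0.0552). Its libraries did not overlap between genotypes, and its value was -0.21 under germ cell marker scaling.

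Of the called genes of this list, *Acvr2a*, *Acvr2b*, *Fst* and *Zfyve9* overlap another gene on the opposite strand and *Smurf2* overlaps *Gm27322* on the same strand in the annotation.

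Most of the 6 genes that Nodal induces in the early embryo were near the floor, and 1 was tested. *Mixl1* was not called (Log2FC -0.65, FDR 0.170). *Eomes* had 9 counts in controls and 3 counts in *Bmpr1a*-cKO libraries.

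**Figure D4:**
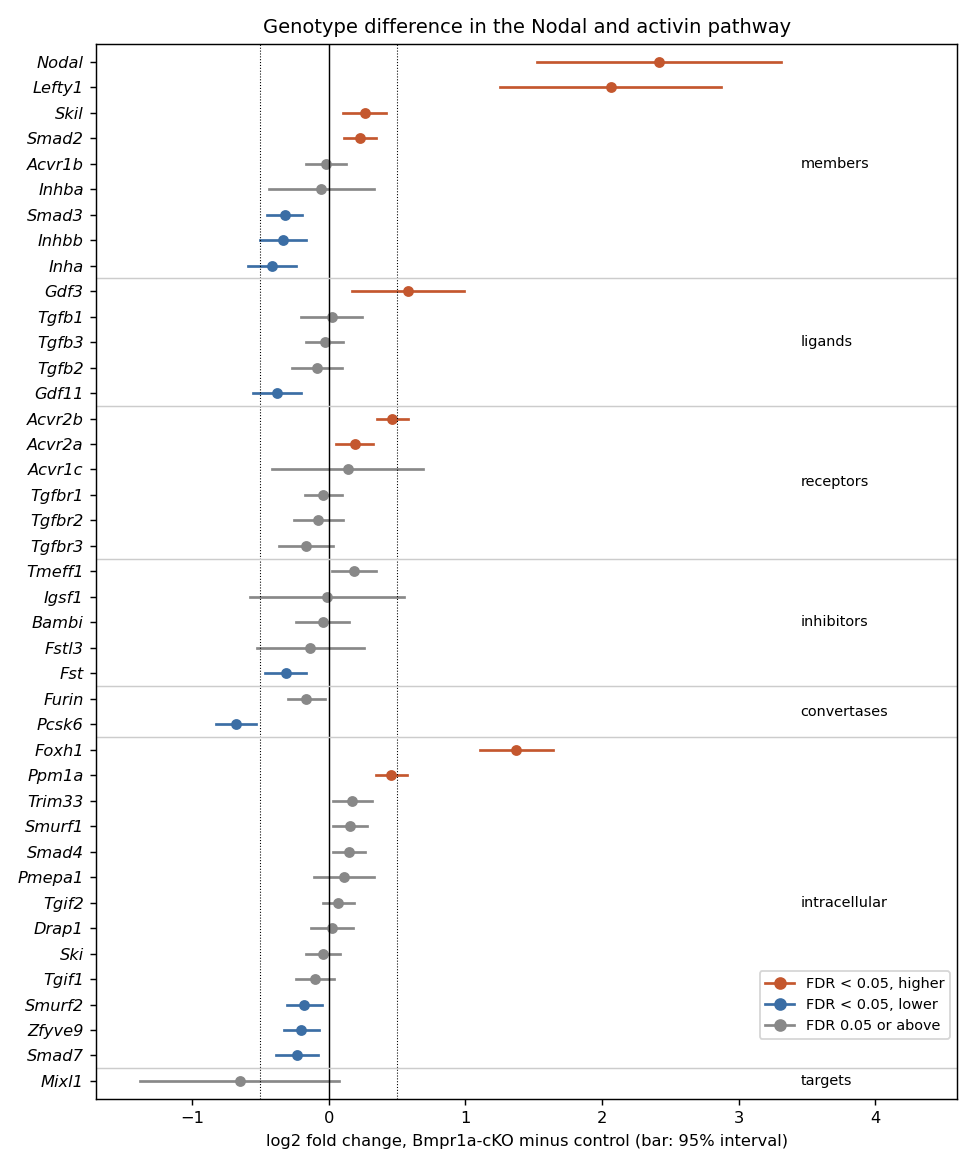
Log2FC of *Bmpr1a*-cKO minus control ovaries with 95% intervals for the 9 genes and the 32 other pathway genes tested, grouped by role, with the FDR by colour and dotted lines at 0.5 and -0.5. *Nodal* (2.42), *Lefty1* (2.06), *Foxh1* (1.37) and *Gdf3* (0.58) lie right of the dotted lines, and *Pcsk6* (-0.68) is the only gene of lower level beyond them that passed the FDR; under germ cell marker scaling the values of *Smad2*, *Skil*, *Acvr2a* and *Smad4* turned negative.

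The genes whose log2 CPM followed each called member most closely over the 8 libraries were found among genes with a mean of at least 1 CPM, as a description with no p, and all points share the libraries and their genotype. *Nodal* was followed most closely by *Gtpbp10*, *Snx18* and *Ugp2* (Pearson r of 0.982 each, over 8 libraries). For *Lefty1* they were *Actn2* (r = 0.987), *Maff* (0.978) and *Dnah11* (0.978), with a Log2FC of 1.67, 1.35 and 2.25. *Inhbb* was matched by *Rarg* (0.983), *Arsg* (0.982) and *Coq9* (0.975), and *Inha* by *Sipa1l2* (0.991), *Atp2b3* (0.988) and *Kcnh1* (0.988). For *Smad2* they were *F2r* (0.992), *Cdc27* (0.991) and *Ubxn2b* (0.991), and for *Smad3* *Mgat5b* (0.986), *Zmym6* (0.981) and *Tiparp* (0.977). *Skil* was matched by *Dpy30* (0.994), *Srsf3* (0.993) and *Lactb2* (0.991). With the genotype means taken out, r for these genes ranged from 0.840 to 0.991. The genes were picked as the closest of many over the same 8 libraries, so a high r here was built in.

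Of the 9 genes, *Inhbb*, *Inha* and *Smad3* kept their direction and an FDR below 0.05 in every alternative, and *Smad2* in all but germ cell marker scaling. *Nodal* and *Lefty1* kept direction and call as well, wherever they could be computed. Both had passed the filter on low counts only through the *Bmpr1a*-cKO group, so nothing is read from their calls in the alternatives. *Nodal* ranged from 2.0 to 2.64 and *Lefty1* from 1.67 to 2.24 in Log2FC. Germ cell marker scaling, which moved the median of all genes to -0.37, took *Inhbb* to -0.68, *Inha* to -0.76 and *Smad3* to -0.68, past the Log2FC threshold for a DEG. Among the other pathway genes it took *Gdf3* to 0.17, *Gdf11* to -0.73, *Fst* to -0.67, *Pcsk6* to -1.04, *Smad7* to -0.57, *Zfyve9* to -0.57 and *Smurf2* to -0.55, and *Foxh1* to 0.99.

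**Figure D5:**
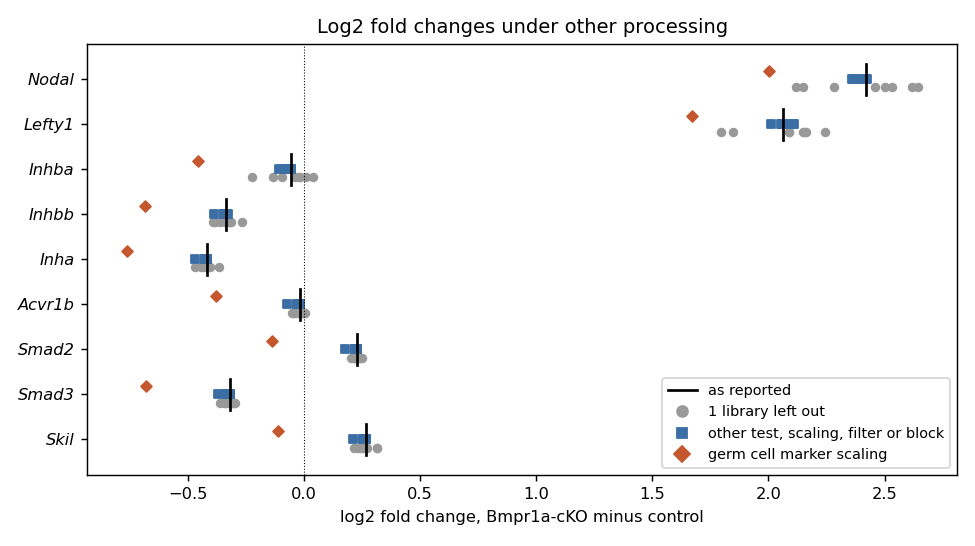
Log2FC of the 9 genes as reported (black line) and in the alternatives: 1 library left out (grey), another test, scaling, filter or the replicate block (blue), and scaling to germ cell markers (orange). *Nodal* stays at 2.0 or above and *Lefty1* at 1.67 or above, while the orange points of *Smad2* (-0.14) and *Skil* (-0.11) lie left of 0.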

How the data were processed

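RNA was extracted from whole E14.5 ovaries, and stranded paired-end libraries were made from total RNA. Per the labels and the paper, the authors trimmed reads with Trimmomatic 0.39 and mapped them with STAR 2.5.2 to mm10. The paper states that STAR also counted the reads of each gene. Raw read counts for each gene symbol were deposited. The annotation and the strand setting of the counting are not given in the sources used here. A second deposited table gives CPM (unit: signal) for 14244 genes. It was used only for its gene set, of which 14189 genes were tested here.

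CPM, fold changes and tests were computed from the counts with edgeR 4.0.16, limma 3.58.1 and, as an alternative, DESeq2 1.42.0 (R 4.3.3). The filter was filterByExpr (minimum count 10) and the scaling TMM. Genotype was tested by the quasi-likelihood F test (two-sided, Benjamini-Hochberg adjustment over 14249 genes). The alternatives were the likelihood ratio test, limma-voom, DESeq2, RLE scaling, library size alone, scaling to germ cell markers, no filter, CPM above 1 in at least 4 libraries, the genes of the CPM table, the replicate number as a block, and each library left out in turn. Log2 CPM carried a prior count of 2, and the ratios a pseudocount of 0.5. Depth was 8562961 to 15365052 counts per library. Counting intervals (exact, 95%) and the floor of 3 counts cover counting error only.

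The text names all 9 members, the other pathway genes with an FDR below 0.05, those needed beside a member, and for each called member the 3 genes with the highest correlation. *Gdf1*, *Inhbc*, *Inhbe*, *Gsc*, *Cfc1*, *Furin*, *Mixl1* and *Eomes* were named in addition, after their values were seen. Members and lists were chosen with earlier results of these data known. Positions and overlaps are from GENCODE vM21, and promoter windows from RefSeq, with an entry used for 6 of the 9 members. Some items of the pathway list are not reported here. The procedure was tested on simulated data.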

Additional observations from a re-analysis of the deposited data

Results flagged for a closer look

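In 4 of the 42 groups of 4 libraries examined for the pathway genes, 1 library stood apart from the other 3 by Dixon's criterion at 95%, which chance alone reaches in about 1 of 20 groups. *Lefty1* measured 2.30 CPM in *Bmpr1a*-cKO library 3, against 1.26 to 1.43 CPM in the others of that genotype. *Inhbb* measured 63.5 CPM in *Bmpr1a*-cKO library 1, against 55.1 to 55.5 CPM in the others. *Inha* measured 26.6 CPM in control library 3, against 28.1 to 28.3 CPM in the other controls. *Gdf3* measured 2.83 CPM in control library 2, against 2.34 to 2.38 CPM in the other controls. The calls of *Inhbb* and *Inha* were also made without these libraries. That of *Lefty1* was too, but nothing is read from it because of the filter.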

How the results depend on the processing

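Of the 9 genes, 7 were called, with 5 to 7 over the 18 alternatives and 6 to 7 with 1 library left out. These counts include *Nodal*, where tested, and *Lefty1*, whose calls carry the limit of the filter given above. Of the other pathway genes 11 were called, with 7 to 14 with 1 library left out. The count of DEGs over all genes was 1449, with 1288 to 1627 when 1 library was left out and 3627 under germ cell marker scaling. That scaling lowered the share of calls that were higher from 58.0% to 8.62%, and library size alone lowered it to 43.1%. The marker scaling rests largely on *Dazl*, itself called higher in the cKO (Log2FC 0.63), and it moved the median Log2FC of all genes to -0.37. Whether the marker sum follows germ cell number, and the cause of the shift with library size alone, were not tested. Germ cell marker scaling turned *Smad2* (-0.14), *Skil* (-0.11), *Acvr2a* (-0.17) and *Smad4* (-0.21) negative. The small Log2FC of *Acvr1b* became 0.0057 without control library 2, and that of *Inhba* became 0.0074 without control library 3 and 0.039 without *Bmpr1a*-cKO library 1, none of them called. With 1 library left out, *Inhba* ranged from -0.22 to 0.039 and *Acvr1b* from -0.054 to 0.0057, and germ cell marker scaling took them to -0.45 and -0.38.

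Libraries with the same replicate number correlated at 0.198, 0.161, 0.108 and -0.0871 in their deviations from the group means, and control libraries 3 and 4 correlated better with another number, so the numbers were not taken as pairs. With the replicate number as a block, 7 of the 9 genes, 16 of the other pathway genes and 1457 DEGs were called, and *Smad4* reached an FDR of 0.0499.

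*Nodal*, *Lefty1* and the genes near the floor are limited by depth. *Nodal* could not be tested with the gene set of the CPM table, where 6 members were called. The pools were whole ovaries and the labels do not give the litter, so p-values cover the spread between pools.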
